A study of Mus musculus with 9 samples.

Results

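The R-spondin branch of Wnt signaling was followed in the developing mouse cortex through 9 genes, chosen by symbol. They are the ligands *Rspo1*, *Rspo2*, *Rspo3* and *Rspo4*, the receptors *Lgr4*, *Lgr5* and *Lgr6*, and the membrane ubiquitin ligases *Znrf3* and *Rnf43*. All 9 were found among the 57010 Ensembl genes of the count table, and 6 of them had more than 10 reads in every embryo, as 13680 genes did. *Rspo4*, *Lgr5* and *Lgr6* did not reach this minimum. RNA was sequenced from the cortex of 9 single E12.5 embryos, 3 of each genotype. Control embryos (Ctrl) have the genotype WT in the labels. In *Cnot3* cKO embryos, floxed *Cnot3* alleles are removed by *Emx1*-Cre, which acts in radial glial cells (RGCs) of the dorsal telencephalon and in the cells they produce. In *Cnot3;Trp53* dcKO embryos, labelled *Cnot3;p53*, the same Cre also removes floxed *Trp53*, which encodes the tumor suppressor p53. Cells outside the *Emx1* lineage, such as vessel and meningeal cells, keep the intact alleles in both mutants.

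R-spondins are secreted proteins that amplify Wnt signaling. ZNRF3 and RNF43 mark Frizzled receptors for removal from the cell surface, and an R-spondin that binds one of these ligases together with an LGR receptor takes the ligase away, so that more Wnt receptor remains. *Znrf3* and *Rnf43* are themselves transcriptional targets of Wnt in many tissues, as is *Axin2*. In the embryonic forebrain, the cortical hem at the dorsal midline is a known source of Wnt and R-spondin ligands and lies beside the choroid plexus. CNOT3 is a subunit of CCR4-NOT, the complex that shortens poly(A) tails and starts the decay of many mRNAs.

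Short sequences through which mRNAs are known to recruit CCR4-NOT were looked up in the 3′ UTRs of the members, because *Cnot3* is the gene removed here. The AU-rich core TATTTAT and the Pumilio element TGTANATA were searched on the transcript strand of 1 coding transcript of each gene in GENCODE M21 (GRCm38). The sites of the 3 genes that DESeq2 called are shown 5′ to 3′, with the element in capitals and 11 flanking bases on each side, all within 3′ UTR exons on the minus strand.
*Rspo2* AU-rich site, chr15:43022333-43022361: ggactcagcgtTATTTATgctttgattgg
*Rspo2* AU-rich site, chr15:43021886-43021914: tcattactgtaTATTTATgctttctctgt
*Rspo2* AU-rich site, chr15:43021492-43021520: gtagttacttgTATTTATtatacaatttc
*Rspo2* Pumilio site, chr15:43021679-43021708: taagctagtttTGTATATAgagtcaaatga
*Rspo3* AU-rich site, chr10:29452911-29452939: gtgctaggagaTATTTATtgtttttctta
*Rspo3* Pumilio site, chr10:29453861-29453890: atgagaaaattTGTACATAattatcaataa
*Znrf3* AU-rich site, chr11:5276538-5276566: tgttctcagaaTATTTATttactaatata
*Znrf3* AU-rich site, chr11:5276522-5276550: atttactaataTATTTATcttaagccatg
*Znrf3* Pumilio site, chr11:5276445-5276474: taacaaggcccTGTAAATAcatgataattg

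The *Rspo2* and *Rspo3* 3′ UTRs are 1730 and 1712 bases long, and that of *Znrf3* is 3400 bases. The printed windows of the *Znrf3* AU-rich sites overlap, but the elements themselves do not. *Rspo1*, with a 3′ UTR of 554 bases, and *Rspo4* held neither element, *Lgr4* held 2 Pumilio and 0 AU-rich elements, and *Rnf43* held 3 AU-rich and 0 Pumilio elements. Among 11803 tested genes with a 3′ UTR, 29.5% held the AU-rich core and 26.3% the Pumilio element. Among the 1229 of these with a 3′ UTR between 1500 and 2000 bases, the shares were 37.8% and 31.0%. The elements thus occur both in genes that DESeq2 called as higher and in the gene it called as lower in cKO. A match is a description of the letters and not evidence of a working site.

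Coding sequence composition also separated the ligands. The share of G and C at the last position of codons (GC3) was 46.9% in *Rspo2* and 43.0% in *Rspo3*, below the median of 60.4% over 11992 tested genes. It was 75.8% in *Rspo1*, which is higher than in 94.0% of those genes. *Lgr4* had a GC3 of 51.3%, *Rnf43* of 62.2% and *Znrf3* of 65.8%. Promoter windows of 300 bases from RefSeq (GRCm38.p6) were found for 5 members, *Rspo1*, *Rspo4*, *Lgr4*, *Lgr6* and *Rnf43*. The TCF/LEF motifs CTTTGAT and CTTTGAA, searched on both strands, were in 0 of their 6 windows, against 3.73% and 5.14% of 32851 windows over all genes.

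Between 21193798 and 45073349 reads were counted per embryo. Levels are given in CPM, which are reads scaled to library size with TMM factors. *Cnot3* was at 98.2 to 117.3 CPM in Ctrl, at 14.6 to 17.3 CPM in cKO and at 7.33, 48.2 and 19.0 CPM in dcKO replicates 1, 2 and 3. *Trp53* was at 215 to 254 CPM in Ctrl, 164 to 167 CPM in cKO, and 15.1, 110 and 20.6 CPM in the same dcKO embryos. Each cKO embryo lay below every Ctrl embryo in *Trp53*. Replicate 2 of dcKO thus kept more of both targeted mRNAs than the other dcKO embryos, and it alone had reads of the subpallial gene *Gsx2* (96 reads, 0 in each other embryo). *Emx1*, whose locus drives the Cre, was at 43.8 to 120 CPM in Ctrl, at 20.4 to 23.7 CPM in cKO and at 7.94, 17.7 and 80.9 CPM in dcKO. The labelled tissue therefore carried this dorsal cortical marker in each genotype.

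The first question was which ligands are present and in what order. Levels of different genes were compared per kb of exon. In Ctrl, *Rspo3* had 5.19 ± 1.92 CPM per kb (SD, n = 3), *Rspo1* 4.51 ± 2.96, *Znrf3* 3.15 ± 0.334, *Rspo2* 1.33 ± 1.15, *Lgr4* 1.19 ± 0.0575 and *Rnf43* 0.468 ± 0.0920. *Rspo3* and *Rspo1*, *Rspo1* and *Znrf3*, and *Rspo2* and *Lgr4* overlapped between Ctrl embryos, while every *Znrf3* value lay above every *Rspo2* value and every *Lgr4* value above every *Rnf43* value. All 6 means lay below the median of 6.28 CPM per kb over 13561 tested genes with a length. In cKO the order was *Rspo3* (22.1 ± 11.7), *Rspo1* (12.9 ± 7.05), *Rspo2* (12.8 ± 7.23), *Znrf3* (1.29 ± 0.532), *Lgr4* (0.997 ± 0.380) and *Rnf43* (0.242 ± 0.134). The 3 ligands overlapped one another in cKO and were all above the receptor and ligases in each cKO embryo. In dcKO *Rspo3* (21.8 ± 15.7), *Rspo2* (12.3 ± 9.87) and *Rspo1* (10.2 ± 3.62) again overlapped and again exceeded *Znrf3* (2.27 ± 1.29), *Lgr4* (0.958 ± 0.437) and *Rnf43* (0.476 ± 0.277). The length of the longest transcript in place of all exons left the order in Ctrl and dcKO as it was, and put *Rspo2* before *Rspo1* in cKO.

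*Rspo2* showed the largest difference of the 6 tested members. It encodes an R-spondin that can act on ZNRF3 and RNF43 even without an LGR receptor, and lies on chromosome 15 from 43020794 to 43170826 (GRCm38). Its levels were 7.46, 12.3 and 0.613 CPM in Ctrl, 24.4, 74.9 and 96.5 CPM in cKO, and 121.2, 36.9 and 31.0 CPM in dcKO, in the order of replicates 1 to 3. Every embryo of either mutant lay above every Ctrl embryo, and the lowest value, in Ctrl replicate 3, came from 17 reads. The mean was 9.58 times that of Ctrl in cKO and 9.26 times in dcKO. On the log2 scale *Rspo2* was higher by 3.27 in cKO (SE, the standard error, 0.93, adjusted p = 0.0677 in edgeR and 0.0176 in DESeq2). In dcKO it was 3.22 (SE 0.93, adjusted p = 0.0660 in edgeR and 0.0198 in DESeq2). *Rspo2* thus rose in both mutants by DESeq2 and did not reach the threshold in edgeR. The edgeR log2 value moved to 4.02 in cKO and 3.97 in dcKO without Ctrl replicate 2, and to 2.33 in dcKO without dcKO replicate 1.

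*Rspo3*, a ligand known for roles in vessel and placenta development, lies on chromosome 10 from 29452416 to 29535867. It was at 14.4, 22.6 and 11.1 CPM in Ctrl, at 34.04, 64.2 and 106 CPM in cKO and at 122, 51.4 and 28.8 CPM in dcKO. The groups did not overlap with Ctrl, although dcKO replicate 3 was close to the highest Ctrl embryo. The mean was 4.25 times that of Ctrl in cKO and 4.20 times in dcKO. The log2 fold change was 2.09 in cKO (SE 0.56, adjusted p = 0.0609 in edgeR and 0.00287 in DESeq2) and 2.07 in dcKO (SE 0.56, adjusted p = 0.0594 in edgeR and 0.00335 in DESeq2). *Rspo3* thus rose in both mutants by DESeq2 and did not reach the threshold in edgeR. Without dcKO replicate 1 its log2 value in dcKO was 1.33.

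*Rspo1*, on chromosome 4 from 124986430 to 125009099, encodes the founding member of the ligand family, known for its part in ovary development. Its levels were 10.6, 13.3 and 2.31 CPM in Ctrl, 10.9, 25.5 and 38.3 CPM in cKO, and 26.5, 12.54 and 20.5 CPM in dcKO. Unlike *Rspo2* and *Rspo3*, it overlapped with Ctrl in both mutants, through cKO replicate 1 and dcKO replicate 2. The log2 fold change was 1.51 in cKO (SE 0.62, adjusted p = 0.153 in edgeR and 0.0615 in DESeq2) and 1.19 in dcKO (SE 0.61, adjusted p = 0.224 in edgeR and 0.158 in DESeq2). Neither tool called it in these fits. With a correction for GC content, its log2 difference was 2.21 in cKO (edgeR adjusted p = 0.0509) and 2.34 in dcKO (edgeR adjusted p = 0.0655). With only the 6 embryos compared, edgeR called it in cKO (1.52, adjusted p = 0.0435). With the number in the sample names as a block, which leaves 1 residual degree of freedom, edgeR called it in cKO (1.40) and dcKO (3.15).

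*Rspo4*, the ligand known for nail development, had 0 reads in all 3 Ctrl embryos. It had 6, 9 and 0 reads in cKO and 25, 0 and 0 reads in dcKO. The 0 reads in Ctrl allow up to 0.0414 CPM over the group, taking 3 reads as the limit for counting error. No fold is given, since only 1 dcKO embryo and 2 cKO embryos had any read.

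**Figure D1:**
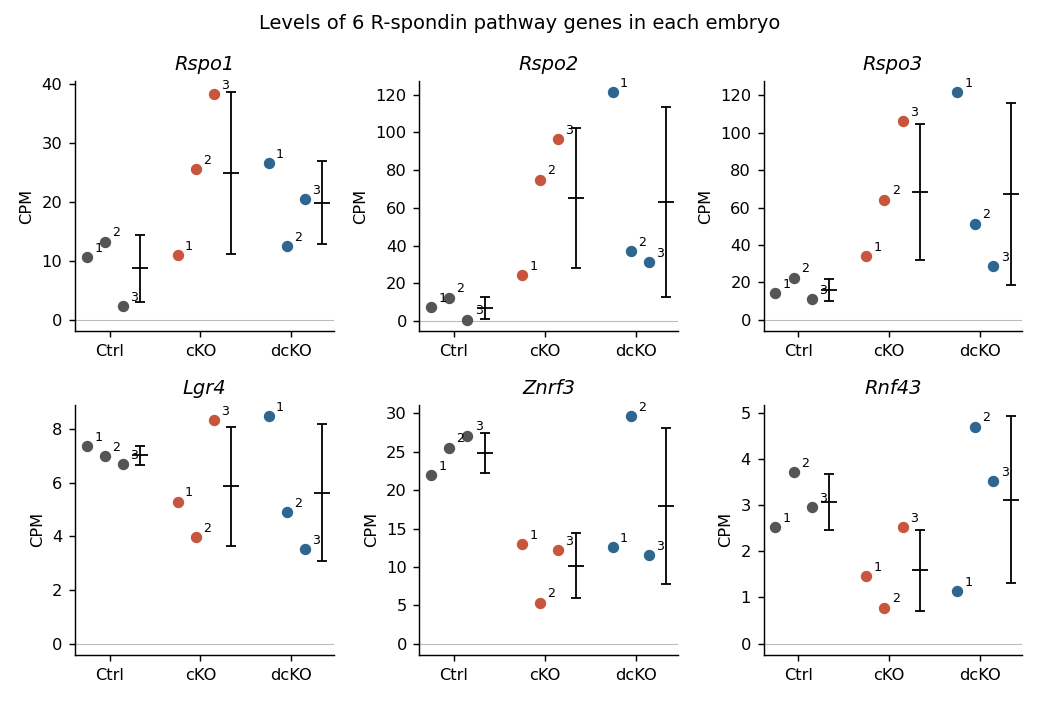
CPM of the 6 tested members in each embryo (points, numbered by replicate) by genotype on a linear axis, with the mean and SD of 3 embryos as a bar beside them. *Rspo2* and *Rspo3* lie above Ctrl in each mutant embryo, *Znrf3* lies below Ctrl in each cKO embryo, and dcKO replicate 2 has the highest *Znrf3* and *Rnf43*, at 29.7 and 4.70 CPM.

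Set together per length, the 4 ligands came to 11.6, 16.6 and 4.92 CPM per kb in Ctrl, 21.5, 48.7 and 73.0 in cKO, and 77.1, 30.3 and 26.0 in dcKO. *Rspo2* made up 12.6%, 14.6% and 2.44% of this sum in Ctrl. It made up 22.2% to 30.0% in cKO and 23.4% to 30.8% in dcKO, so each mutant embryo had a larger *Rspo2* share than any Ctrl embryo. *Rspo1* made up 47.4%, 41.3% and 24.2% in Ctrl, 26.2% to 27.0% in cKO and 17.8%, 21.3% and 40.7% in dcKO. *Rspo3* made up 40.1%, 44.1% and 73.3% in Ctrl and 35.9% to 54.9% in the mutants, so its shares overlapped, as those of *Rspo1* did. The mixture thus differed from Ctrl without overlap in the *Rspo2* share only.

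**Figure D2:**
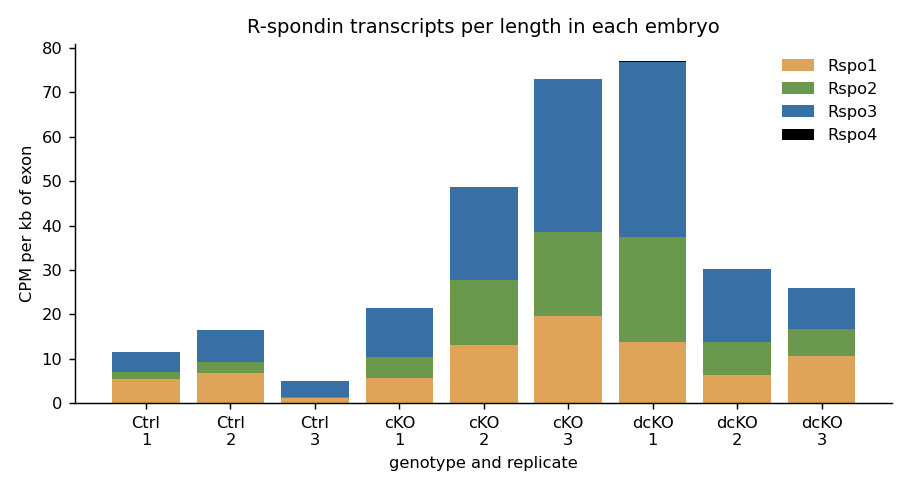
CPM per kb of exon of the 4 R-spondin genes, stacked for each embryo from 0. The sum is lowest in Ctrl replicate 3 (4.92) and highest in dcKO replicate 1 (77.1), and the *Rspo2* segment is small in all 3 Ctrl embryos.

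Of the receptors, only *Lgr4* was well detected. *Lgr4*, the broadly expressed member of the receptor family, on chromosome 2 from 109917647 to 110014257, was at 7.38, 6.99 and 6.71 CPM in Ctrl, 5.29, 3.98 and 8.33 CPM in cKO, and 8.50, 4.90 and 3.52 CPM in dcKO. The mutant embryos lay on either side of the narrow Ctrl range. The log2 fold change was -0.26 in cKO (SE 0.39, adjusted p = 0.703 in edgeR) and -0.31 in dcKO (SE 0.39, adjusted p = 0.612 in edgeR). DESeq2 called it in neither mutant.

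*Lgr5*, the receptor known as a marker of intestinal stem cells, had 0 reads in every Ctrl embryo, which allows up to 0.0414 CPM over the group. It had 7 reads in cKO replicate 3 and 1 read in dcKO replicate 1, and 0 in the other mutant embryos. *Lgr6* had 7, 2 and 6 reads in Ctrl, 6, 13 and 4 in cKO, and 20, 0 and 14 in dcKO, and the groups overlapped. With so few reads, a small difference in either gene could not be assessed.

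The ligases gave lower values in cKO. *Znrf3*, on chromosome 11 from 5276324 to 5444847, was at 21.9, 25.5 and 27.1 CPM in Ctrl, at 13.0, 5.32 and 12.2 CPM in cKO and at 12.55, 29.7 and 11.5 CPM in dcKO. All 3 cKO embryos and dcKO replicates 1 and 3 lay below every Ctrl embryo, and dcKO replicate 2 lay above them. The mean in cKO was 0.408 times that of Ctrl, and the log2 fold change was -1.29 (SE 0.43, adjusted p = 0.0966 in edgeR and 0.0257 in DESeq2). *Znrf3* thus fell in cKO by DESeq2 and did not reach the threshold in edgeR. In dcKO the log2 fold change was -0.47 (SE 0.42, adjusted p = 0.475 in edgeR and 0.447 in DESeq2). Without dcKO replicate 2 it was -1.04 (edgeR adjusted p = 0.0755), and -1.08 in DESeq2, where *Znrf3* was then called (adjusted p = 0.0164).

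*Rnf43*, on chromosome 11 from 87662722 to 87735539, had 21 to 184 reads per embryo. Its levels were 2.53, 3.72 and 2.96 CPM in Ctrl, 1.46, 0.781 and 2.53 CPM in cKO, and 1.14, 4.70 and 3.52 CPM in dcKO. The cKO embryos lay below Ctrl by a margin that cKO replicate 3 nearly closed, and the dcKO embryos spread over and beyond the Ctrl range. The log2 fold change was -0.95 in cKO (SE 0.56, adjusted p = 0.307 in edgeR and 0.275 in DESeq2) and 0.03 in dcKO (SE 0.55, adjusted p = 0.980 in edgeR). Without dcKO replicate 2 the dcKO value was -0.41 (edgeR adjusted p = 0.648).

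A gene was called at an adjusted p under 0.05 with a fold change above 2. edgeR called 0 of the 6 tested members in cKO, where it called 0.0146% of all tested genes as higher and 0% as lower. At an unadjusted edgeR p under 0.05, 3 members were higher (*Rspo1*, *Rspo2*, *Rspo3*) and 1 was lower (*Znrf3*), against 15.3% and 11.7% of all tested genes. DESeq2 called 2 members as higher and 1 as lower, against 4.94% and 3.87% of all tested genes. Without overlap between the genotypes, 2 members lay above Ctrl and 2 below (*Znrf3* and *Rnf43*), against 29.2% and 28% of all tested genes, so separation from Ctrl was common across the transcriptome in cKO. The exact two-sided permutation test gave these 4 members p = 0.1, the smallest that 3 embryos against 3 allow, and gave the other 5 members between 0.2 and 1.

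In dcKO edgeR called 0 of 6 members, and 0% of all tested genes as higher and 0% as lower. At an unadjusted edgeR p under 0.05, *Rspo2* and *Rspo3* were higher and 0 members were lower, against 18% and 11.2% of all tested genes. DESeq2 called 2 members as higher and 0 as lower, against 4.66% and 3.79%. Every dcKO embryo lay above every Ctrl embryo for 2 members and below for 0, against 15.6% and 11.2% of all tested genes. *Rspo2* and *Rspo3* had p = 0.1 in the exact permutation test and the other 7 members between 0.2 and 1. Both mutants were compared with the same 3 Ctrl embryos, so the likeness of their fold changes is not independent.

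Removal of *Trp53* in addition to *Cnot3* was assessed by comparing dcKO with cKO directly. The log2 fold change was -0.05 for *Rspo2* (SE 0.84, adjusted p = 0.9995 in edgeR), -0.02 for *Rspo3* (SE 0.53) and -0.33 for *Rspo1* (SE 0.60). Single embryos moved these values, and without dcKO replicate 1 they were -0.94, -0.76 and -0.59, while without cKO replicate 3 they were 0.30, 0.41 and 0.085. It was 0.82 for *Znrf3* (SE 0.43, adjusted p = 0.889 in edgeR) and 0.97 for *Rnf43* (SE 0.56, adjusted p = 0.889 in edgeR). Without dcKO replicate 2 they were 0.25 and 0.53. All 9 members overlapped between the mutants, while 2.62% of tested genes lay wholly above and 3.63% wholly below. edgeR called 0% and DESeq2 0.0292% of tested genes as higher in dcKO, and 0.0146% and 0.351% as lower. The unadjusted edgeR p was under 0.05 for 0 members, against 2.05% of genes that were higher and 2.38% that were lower. No member was called by either tool.

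**Figure D3:**
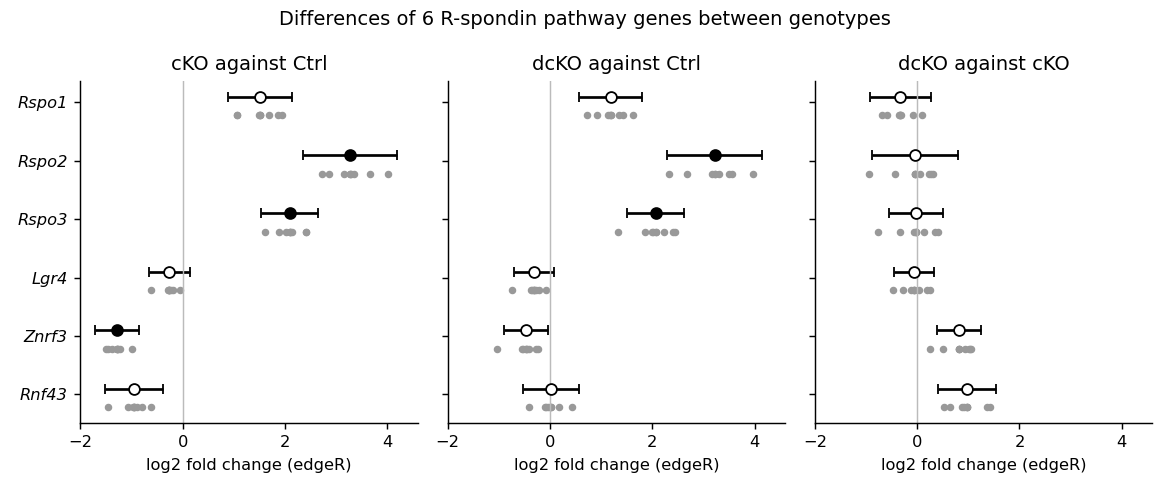
edgeR log2 fold changes of the 6 tested members in 3 comparisons, with standard errors (circles and bars, filled where DESeq2 called the gene) and the values with each of the 9 embryos left out in turn (gray points). *Rspo2* and *Rspo3* stay above 0 against Ctrl whichever embryo is left out, between 1.33 and 4.02, and DESeq2 called no member between the mutants.

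The calls depended on single embryos. In edgeR, *Rspo2* and *Rspo3* passed in cKO without dcKO replicate 1 (adjusted p = 0.0479 and 0.0243), replicate 2 (0.0433 and 0.0375) or replicate 3 (0.0163 and 0.00881). *Znrf3* passed in cKO without dcKO replicate 2 or 3 (edgeR adjusted p = 0.0260 and 0.0264). In dcKO, *Rspo2* and *Rspo3* passed in edgeR without dcKO replicate 2 (adjusted p = 0.0418 and 0.0377) or replicate 3 (0.00748 and 0.00226). With DESeq2 the call of *Rspo2* in cKO was lost without Ctrl replicate 1 (adjusted p = 0.0955), cKO replicate 2 (0.1) or cKO replicate 3 (0.133), and that of *Rspo3* without cKO replicate 3 (0.0690). That of *Znrf3* was lost without any one of the 6 Ctrl and cKO embryos (DESeq2 adjusted p between 0.0513 and 0.148). In dcKO the DESeq2 call of *Rspo2* was lost without Ctrl replicate 1 (adjusted p = 0.0920) or dcKO replicate 1 (0.205), and that of *Rspo3* without dcKO replicate 1 (0.0971). *Rspo1* in turn was called in cKO by DESeq2 without cKO replicate 1 (adjusted p = 0.0493) or dcKO replicate 2 (0.0288). *Znrf3* was called between the mutants by DESeq2 without dcKO replicate 3 (adjusted p = 0.0338).

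The sample names carry a number that 3 pairs of embryos share, and what it stands for is not stated. Between Ctrl replicate 1 and cKO replicate 2, *Rspo2* differed by 3.32, *Rspo3* by 2.16, *Rspo1* by 1.26, *Znrf3* by -2.04, *Lgr4* by -0.89 and *Rnf43* by -1.67 on the log2 CPM scale, mutant minus control. Between Ctrl replicate 2 and cKO replicate 3 the values were 2.96, 2.23, 1.52, -1.07, 0.25 and -0.55. Between Ctrl replicate 3 and dcKO replicate 3 they were 5.62, 1.37, 3.14, -1.23, -0.93 and 0.25. The first 4 genes had the same sign in all 3 pairs, and *Lgr4* and *Rnf43* did not. Over these 3 pairs, deviations from the genotype mean across the tested genes correlated at -0.120 on average (-0.537 to 0.191). The number in the sample names is thus not shown to pair embryos.

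Several genes of the cortical hem were higher in the mutants, as *Rspo2* and *Rspo3* were. Of 11 cortical hem markers, 9 were tested, and 4 were higher (*Wnt2b*, *Bmp6*, *Lmx1a*, *Msx2*) and 1 lower (*Bmp7*) in cKO at an unadjusted edgeR p under 0.05. In dcKO 3 were higher and 1 was lower. Of all tested genes, 15.3% were higher and 11.7% lower in cKO at that p, and 18% and 11.2% in dcKO. DESeq2 called 4 markers as higher and 1 as lower in cKO, against 4.94% and 3.87% of all tested genes. In dcKO it called 2 and 1, against 4.66% and 3.79%. The median log2 fold change of the 9 was 0.59 in cKO and 0.75 in dcKO, beside 0.01 and 0.11 over all tested genes. *Lmx1a*, a transcription factor that defines the hem, was at 6.20, 6.89 and 2.70 CPM in Ctrl, 12.4, 20.5 and 32.0 CPM in cKO, and 28.2, 10.3 and 13.0 CPM in dcKO. On the log2 scale *Lmx1a* differed from Ctrl by 2.04 in cKO (SE 0.51, adjusted p = 0.0562 in edgeR and 0.00185 in DESeq2) and 1.71 in dcKO (SE 0.51, adjusted p = 0.0710 in edgeR and 0.0107 in DESeq2). The hem ligand *Wnt3a* was at 3.83, 2.83 and 0.0721 CPM in Ctrl, 4.34, 18.7 and 21.5 CPM in cKO, and 8.13, 4.19 and 17.6 CPM in dcKO. Ctrl replicate 3, lowest of all embryos in the 3 ligands, was also lowest in *Lmx1a*, *Wnt2b* and *Wnt3a*. Within cKO, replicate 1 was lowest and replicate 3 highest for the 3 ligands and these 3 genes.

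The summed level of the 11 hem markers was 109 to 143 CPM in Ctrl, 107 to 270 CPM in cKO and 137 to 247 CPM in dcKO, with *Gdf7* at 0 reads in every embryo. Markers of choroid plexus epithelium differed among themselves. *Ttr*, the transthyretin gene that defines this epithelium, had 0 reads in each Ctrl embryo, 162, 292 and 870 in cKO, and 2050, 134 and 149 in dcKO. The 8 choroid plexus markers summed to 4.97 to 6.30 CPM in Ctrl, 19.6 to 72.6 CPM in cKO and 17.2 to 113 CPM in dcKO, and 0 of them passed the read minimum. Most of the sum in the mutants came from *Ttr*, *Clic6*, *Otx2* and *Folr1*. *Ttr*, *Clic6* and *Otx2* were above every Ctrl embryo in all 6 mutant embryos, *Folr1* and *Kcne2* in all 3 cKO embryos, and *Kl* and *Prlr* in neither mutant. *Aqp1*, a water channel gene, was below every Ctrl embryo in all 6 mutant embryos, at 3.22 to 4.51 CPM in Ctrl, 1.67 to 2.99 CPM in cKO and 0.179 to 1.97 CPM in dcKO. In bulk tissue, a larger share of hem or choroid plexus cells and more mRNA per cell cannot be told apart. The part of these cells in the *Rspo1*, *Rspo2* and *Rspo3* values was not tested.

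As a measure chosen after the values were seen, each ligand was divided by a hem gene in the same embryo. Relative to *Lmx1a*, *Rspo2* had 1.07 ± 0.790 times its CPM in Ctrl, 2.88 ± 0.854 times in cKO and 3.42 ± 0.965 times in dcKO (SD, n = 3, exact permutation p = 0.1 for each mutant, the smallest possible). Relative to *Wnt2b*, *Rspo2* had 1.91 ± 0.430 times in Ctrl, 3.09 ± 0.396 times in cKO and 4.07 ± 1.96 times in dcKO (exact permutation p = 0.1 and 0.3). Relative to *Wnt3a*, it had 4.94 ± 3.31 times in Ctrl, 4.70 ± 0.829 times in cKO and 8.49 ± 6.57 times in dcKO (exact permutation p = 0.8 and 0.7). The Ctrl values of the last ratio were 1.95, 4.37 and 8.5, of which the highest, in replicate 3, rests on 2 reads of *Wnt3a* and 17 of *Rspo2*. *Rspo2* thus lay apart from Ctrl in both mutants with *Lmx1a*, in cKO with *Wnt2b* and in neither with *Wnt3a*. *Rspo3* overlapped between each mutant and Ctrl with all 3 divisors, with exact permutation p between 0.3 and 0.9. With *Lmx1a* as the divisor *Rspo1* overlapped between each mutant and Ctrl. With *Wnt3a* it lay below Ctrl in cKO and overlapped in dcKO (exact permutation p = 0.1 and 0.3). Relative to *Wnt2b*, *Rspo1* of all 6 mutant embryos lay below the Ctrl range, at 3.58 ± 1.58 times in Ctrl, 1.22 ± 0.218 times in cKO and 1.40 ± 0.483 times in dcKO (exact permutation p = 0.1 for each).

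**Figure D4:**
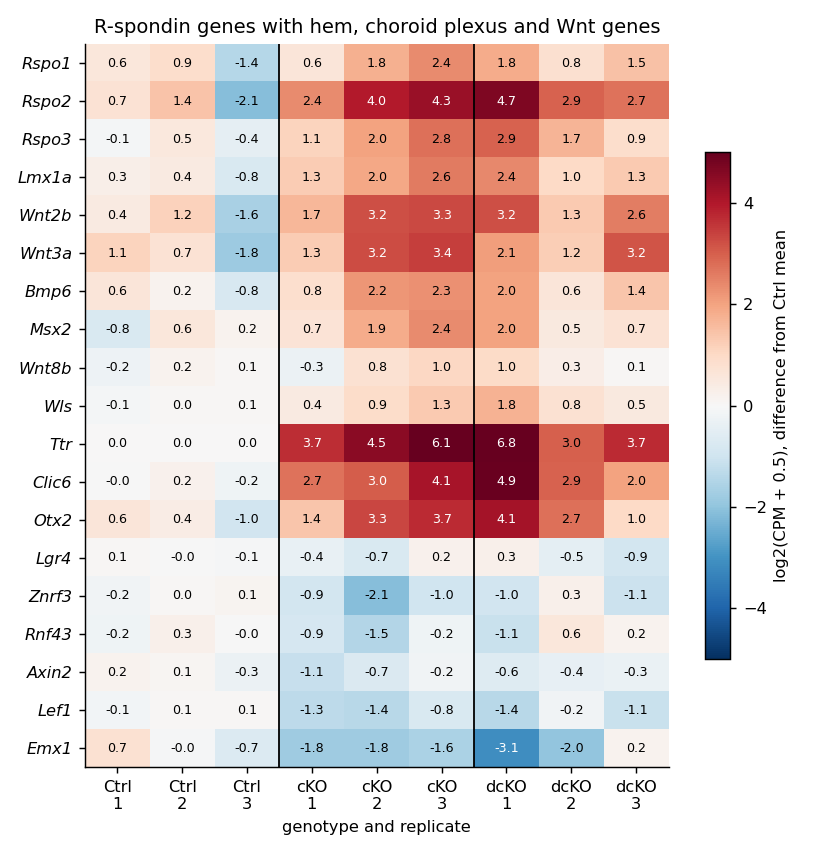
Level of each gene in each embryo as log2(CPM + 0.5) minus the mean of the 3 Ctrl embryos, for R-spondin pathway genes and hem, choroid plexus and Wnt genes and *Emx1*. *Rspo2* and *Rspo3* are highest in dcKO 1 and cKO 3, as are *Ttr*, *Clic6* and *Otx2*, while *Wnt3a* is lower in dcKO 1 (8.13 CPM) than in dcKO 3 (17.6 CPM).

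Markers of other tissues were summed in the same way. The 10 meningeal markers summed to 784 to 864 CPM in Ctrl, 459 to 701 CPM in cKO and 327 to 522 CPM in dcKO. The 8 endothelial markers summed to 228 to 311 CPM in Ctrl, 226 to 320 CPM in cKO and 152 to 178 CPM in dcKO. The 7 Cajal-Retzius markers summed to 127 to 160 CPM in Ctrl, 128 to 193 CPM in cKO and 94.0 to 118 CPM in dcKO. The lower sums in dcKO came from few genes in 2 of these lists. In dcKO only the collagens *Col1a1*, *Col1a2* and *Col3a1* among 8 tested meningeal markers lay wholly below Ctrl, and only *Reln* among 7 Cajal-Retzius markers. So did 5 of 8 endothelial markers and 11.2% of all tested genes. The same 3 collagens lay wholly below Ctrl in cKO, where 28% of all tested genes did. Of the Cajal-Retzius markers, *Lhx5* and *Ebf3* lay wholly above Ctrl in cKO, where 29.2% of all tested genes did, and 0 lay wholly below. A list of 9 dorsal telencephalic markers had sums of 1442 to 2135 CPM in Ctrl, 1251 to 1447 CPM in cKO and 1375 to 2005 CPM in dcKO. Of these, *Emx1*, *Emx2*, *Pax6* and *Lhx2* lay wholly below Ctrl in cKO, against 28% of all tested genes. In dcKO 0 did, against 11.2%, and 0 lay wholly above Ctrl in either mutant. At an unadjusted edgeR p under 0.05, *Neurod6* was higher and *Emx1* and *Lhx2* were lower in cKO. DESeq2 called 2 of these 9 as lower in cKO, against 3.87% of all tested genes, and 0 in dcKO, against 3.79%. Their median log2 fold change in cKO was -0.29. The 10 diencephalic markers, mostly *Lhx9*, summed to 36.4 to 45.1 CPM in Ctrl, 44.0 to 54.5 CPM in cKO and 45.1 to 64.6 CPM in dcKO. The 9 subpallial markers summed to 1.24 to 1.51 CPM in Ctrl, 2.26 to 4.54 CPM in cKO and 2.17, 9.12 and 1.78 CPM in dcKO. Subpallial sums were above every Ctrl embryo in all 6 mutant embryos, but came mostly from *Lhx6* except in dcKO replicate 2, with the *Dlx*, *Gsx2*, *Nkx2-1* and *Gad* genes at or near 0. Diencephalic sums were above Ctrl in all 3 dcKO embryos, in replicate 3 only by 45.12 against 45.05 CPM in Ctrl replicate 1. They came mostly from *Lhx9*, at 43.7 to 63.8 CPM in dcKO and 35.1 to 43.0 CPM in Ctrl. Every other diencephalic marker was at 1.59 CPM or less in each embryo, and *Barhl2* was not higher in dcKO (0.373 to 0.999 CPM) than in Ctrl (0.721 to 1.59 CPM). The part of such cells in the ligand values was not tested. The highest subpallial sum was in dcKO replicate 2, the embryo with the highest *Znrf3* and *Rnf43*, and the part of subpallial cells in those values was not tested.

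Among tested genes, those most like each member over the 9 embryos were named by Pearson's r of log2 CPM, as a description. For *Rspo1* these were *Dkk3* (r = 0.979), *Wnt2b* (0.976) and *Bmp6* (0.952), while *Wnt3a*, which missed the read minimum, had 0.961. For *Rspo2* they were *Wnt2b* (r = 0.975), *Lmx1a* (0.962) and *Rspo1* (0.952). For *Rspo3* they were *Sgcb* (r = 0.976), *Sulf1* (0.968) and *Wls* (0.956), of which *Wls* encodes the carrier that brings Wnts to the cell surface. The r between *Rspo2* and *Rspo3* was 0.912, and between *Rspo1* and *Rspo3* 0.823.

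*Znrf3* was most like *Nap1l4* (r = 0.979), *Aggf1* (0.976) and *Mast4* (0.974). *Rnf43* was most like *Gm4786* (r = 0.969), *Gm15464* (0.965) and *Mapk4* (0.932), and *Lgr4* most like *Amd-ps4* (0.939), *Rnf185* (0.875) and *Slc10a7* (0.872). The r between *Znrf3* and *Rnf43* was 0.795, and that of *Rspo2* with *Znrf3* was -0.617. *Gm4786*, *Gm15464* and *Amd-ps4* may share reads with related genes. The 9 points of each r share genotypes, so genes that differ between genotypes give high values.

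The remaining Wnt pathway was described by 6 lists with 92 genes in all, of which 70 were tested. In cKO edgeR called 0 of the 70. At an unadjusted edgeR p under 0.05, 3 were higher and 23 lower, against 15.3% and 11.7% of all tested genes. DESeq2 called 1 as higher and 11 as lower, against 4.94% and 3.87%. The median log2 fold change of the 70 was -0.34, beside 0.01 over all tested genes. In dcKO edgeR called 0, and 4 were higher and 13 lower at an unadjusted p under 0.05, against 18% and 11.2%. DESeq2 called 2 and 7, against 4.66% and 3.79%. The median was -0.25, beside 0.11 over all tested genes. These shares of all tested genes also stand beside the counts of each list below.

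Among 9 tested ligand and secretion genes, *Wnt2b* and *Wls* were higher and *Wnt7b* was lower in cKO at an unadjusted edgeR p under 0.05. In dcKO *Wnt7a* joined *Wnt7b* on the lower side. *Wnt2b* had a log2 fold change of 2.69 in cKO and 2.36 in dcKO (SE 0.82 for each) and was called in both by DESeq2 (adjusted p = 0.00521 and 0.0166). Without Ctrl replicate 2 the *Wnt2b* values were 3.44 and 3.11. *Wls* had 0.92 in cKO and 1.11 in dcKO (SE 0.33 for each), and *Wnt7b*, a ligand of the cortical wall, had -0.81 and -1.19 (SEs 0.27 and 0.28). DESeq2 called *Wls* and *Wnt7b* in dcKO, with adjusted p of 0.0213 and 0.00206. *Wnt8b*, a ligand of the medial wall, had 0.59 and 0.50 and was called by neither tool. The ligands were thus not all on one side.

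Of 15 tested receptors and co-receptors, 6 were lower and 1 (*Fzd6*) was higher in cKO at an unadjusted edgeR p under 0.05, with 4 called as lower by DESeq2. In dcKO 3 were lower (*Fzd9*, *Lrp5*, *Ror2*) and 1 (*Fzd7*) was higher, with 3 called as lower. *Fzd9* had a log2 fold change of -2.75 in cKO (SE 0.50) and -1.75 in dcKO (SE 0.48), and *Ror2*, a receptor for non-canonical Wnts, -1.81 and -1.53 (SE 0.42 for each). *Fzd2* had -1.27 in cKO. *Lrp5* had -1.32 in dcKO, where it was at 12.9, 13.8 and 62.1 CPM against 57.8 to 86.4 CPM in Ctrl, so that dcKO replicate 3 overlapped with Ctrl, and without that embryo it had -2.46. *Lrp6*, the main co-receptor together with *Lrp5*, had -0.18 and 0.15. The Frizzled proteins are those that ZNRF3 and RNF43 remove.

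Of 8 tested antagonists, 4 were lower in cKO at an unadjusted edgeR p under 0.05 (*Sfrp1*, *Sfrp2*, *Frzb* and *Kremen1*) and 0 in dcKO. The secreted Wnt binder *Sfrp1* had a log2 fold change of -1.16 in cKO (SE 0.36) and was called by DESeq2 (adjusted p = 0.0208), and in dcKO it had -0.41. Its dcKO levels were 387, 1040 and 377 CPM against 726 to 893 CPM in Ctrl, so that dcKO replicate 2 alone was above Ctrl, and without that embryo the dcKO value was -1.06 (adjusted p = 0.00618 in edgeR). *Dkk3*, which was most like *Rspo1*, had 0.97 and 0.93 and was called by neither tool. Of 13 cytoplasmic transducers, *Dvl1* and *Ctnnb1*, which encodes β-catenin, were lower in cKO at an unadjusted edgeR p under 0.05. *Gsk3a* was lower in dcKO. These counts were near the shares of 11.7% and 11.2% of all tested genes, and 0 transducers were called by either tool.

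Of 15 nuclear effectors and general targets of β-catenin, 8 were lower and 0 higher in cKO at an unadjusted edgeR p under 0.05. In dcKO 4 were lower (*Lef1*, *Bcl9*, *Bcl9l* and *Pygo2*) and 0 higher. DESeq2 called 5 as lower in cKO and 2 in dcKO. The β-catenin partner *Bcl9* had a log2 fold change of -1.19 in cKO and -1.08 in dcKO (SE 0.23 for each, DESeq2 adjusted p = 0.000304 and 0.000919). *Lef1*, a transcription factor of the pathway and one of its targets, was at 46.6 to 53.1 CPM in Ctrl, 18.9 to 29.4 CPM in cKO and 19.1, 44.8 and 22.9 CPM in dcKO. On the log2 scale *Lef1* differed from Ctrl by -1.16 in cKO (SE 0.32, adjusted p = 0.0105 in DESeq2) and -0.81 in dcKO. *Axin2*, the most widely used readout of the pathway, was at 69.0, 66.4 and 50.0 CPM in Ctrl, 27.5, 37.4 and 54.6 CPM in cKO, and 39.1, 46.4 and 48.3 CPM in dcKO. The log2 values were -0.63 in cKO and -0.47 in dcKO (SE 0.26 for each) and neither tool called it. *Sp5*, *Nkd1* and *Tcf7l2* had -1.10, -0.43 and -0.55 in cKO and were not called. No gene of this list was higher by edgeR or DESeq2 in the mutants, where *Rspo2* and *Rspo3* were above Ctrl. *Tcf7* lay wholly above Ctrl in cKO, at 18.3 to 19.2 against 14.7 to 15.9 CPM, and 8 of the 15 lay wholly below. The shares of all tested genes were 29.2% and 28%. In dcKO 0 lay wholly above and 6 wholly below, against 15.6% and 11.2%.

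Of 10 tested other binding partners of R-spondins, the heparan sulfate carriers *Gpc1* and *Sdc1* were lower in both mutants at an unadjusted edgeR p under 0.05. In dcKO *Sdc3* was also lower and *Sdc2* higher. *Gpc1* had a log2 fold change of -1.86 in cKO and -1.63 in dcKO (SEs 0.52 and 0.51, DESeq2 adjusted p = 0.00395 and 0.0108). Without dcKO replicate 3 the dcKO value was -2.48. The medians over the 10 were 0.02 and -0.03, beside 0.01 and 0.11 over all tested genes.

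The DESeq2 calls of these genes also rested on single embryos. Of 19 Wnt pathway and hem genes given with a fold change, DESeq2 called 9 in cKO, and *Bcl9*, *Fzd9*, *Lmx1a* and *Ror2* stayed called whichever embryo was left out. The cKO call was lost for *Sfrp1* without any one of the Ctrl and cKO embryos (adjusted p between 0.0709 and 0.139). It was lost for *Lef1* without any one Ctrl embryo or cKO replicate 1 or 2 (0.0591 to 0.0959), and for *Fzd2* without Ctrl or cKO replicate 1 or 2 (0.0517 to 0.0914). For *Wnt2b* it was lost without cKO replicate 2 or 3 (0.0582 and 0.0604), and for *Gpc1* without Ctrl replicate 1 (0.0628).

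In dcKO DESeq2 also called 9 of the 19, and each call was lost without at least 1 embryo. Without dcKO replicate 1 the calls of *Wnt2b* (adjusted p = 0.189), *Wls* (0.191), *Lmx1a* (0.161) and *Lrp5* (0.241) were lost, and *Bcl9* and *Wnt7b* came to -0.88 and -0.97, under the fold limit. *Lrp5* was lost without any embryo other than dcKO replicate 3, and *Wls* also without any one Ctrl embryo (DESeq2 adjusted p between 0.0706 and 0.118). Without Ctrl replicate 1, *Fzd9* (0.0850), *Gpc1* (0.106), *Ror2* (0.0678) and *Wnt2b* (0.0736) were lost. Without Ctrl replicate 2, *Gpc1* (0.0717) and *Ror2* (0.0625) were lost, without Ctrl replicate 3 *Lmx1a* (0.0736), and without dcKO replicate 3 *Wnt2b* (0.0694). *Lef1* (-1.31) and *Sfrp1* (-1.10) were called as lower without dcKO replicate 2 and *Nkd1* (-1.02) without dcKO replicate 3, while in cKO *Lrp5* was called without any one dcKO embryo and *Sp5* (-1.91) without cKO replicate 3.

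**Figure D5:**
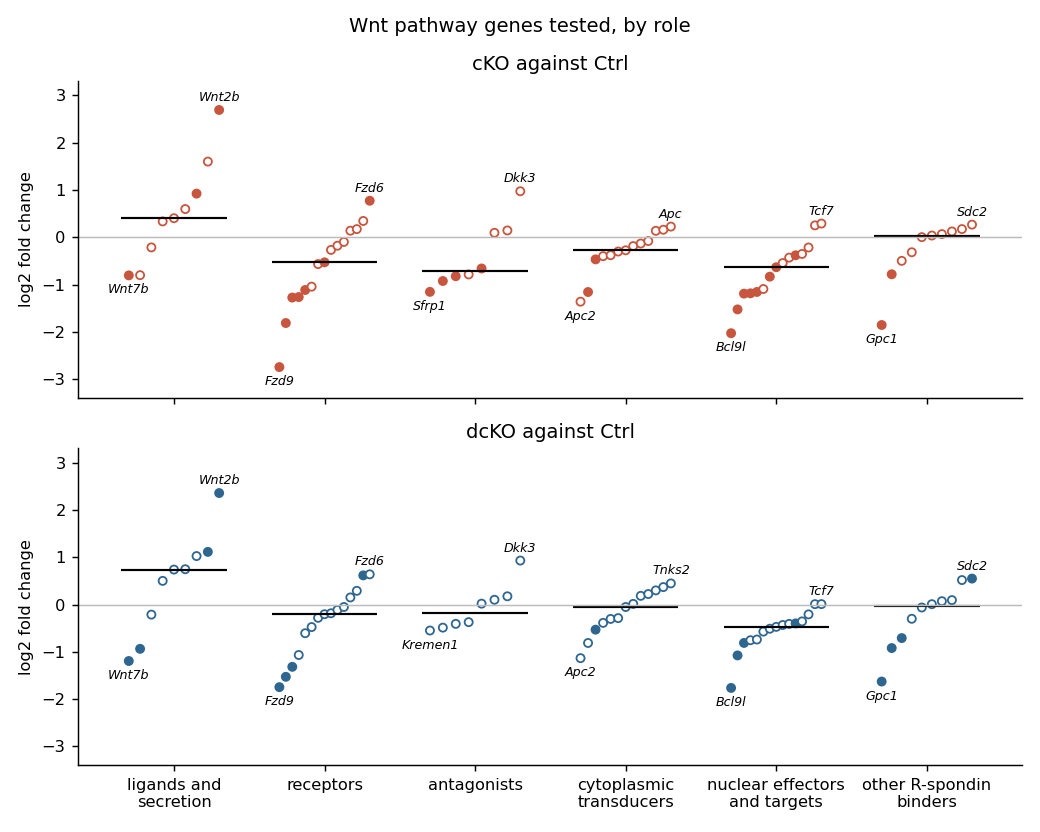
edgeR log2 fold change of each tested gene of 6 Wnt pathway lists in cKO and dcKO against the same Ctrl embryos, filled at an unadjusted edgeR p under 0.05, with the list's median as a line. The lowest and highest gene of each list are named, and all filled points of the target list lie below 0 in both mutants.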

How the data were processed

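Cortical RNA of 9 single embryos was sequenced as stranded poly(A) libraries. According to the paper and the submitters' processing notes, the authors trimmed reads with Cutadapt, aligned them to mm39 with STAR and deposited raw counts per gene from featureCounts, without normalization. The strand setting and versions are not given in the sources used here. Counts were tested with edgeR 4.0.16 (R 4.3.3) by the quasi-likelihood test with TMM factors, on all 9 embryos and the 13680 genes whose reads exceeded 10 in each embryo. A gene was called at a Benjamini-Hochberg adjusted p under 0.05 if it also differed by more than 1 on the log2 scale. DESeq2 1.42.0, the tool the authors name, and limma 3.58.1 were run on the same genes, and single genes were compared by exact permutation of log2 CPM (prior count 0.5, SciPy 1.17.1). The code was checked on simulated counts with the same spread for every gene and no outlying embryo, which differs from these data. Symbols, lengths, coordinates and 3′ UTRs came from GENCODE M21 (GRCm38), which matched 52029 IDs, and promoters from RefSeq. The members and lists were chosen with earlier results of these data known. Named genes are the members, *Cnot3*, *Trp53*, a set of Wnt targets and hem genes, and the 3 genes with the smallest edgeR p in each Wnt list and mutant. The 3 tested genes most like each tested member are also named, with others where a count of a list is broken down. p-values measure the spread between embryos, and read limits cover counting error only. 1 further marker of the labelled tissue was left out of its list and is not reported here.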

Additional observations from a re-analysis of the deposited data

How the results depend on the processing

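Among 360 refits of the tested members' log2 fold changes, 286 kept direction and side of the threshold, 42 gained a call with the same sign and 32 changed sign, 2 of which also passed the threshold. Members called in cKO were 0 in edgeR with TMM, 3 without a read filter, 3 with DESeq2, 4 with limma, 2 with a GC correction, 4 with the number in the sample names as a block (name-number block) and 4 with only the 6 embryos compared. In dcKO they were 0, and 2 without a filter, 2 with DESeq2, 2 with limma and 4 with the name-number block, and between mutants 2 with that block. Leaving out each embryo gave 0 to 3, 0 to 2 and 0, and in DESeq2, a choice made after seeing the data, 0 to 4, 0 to 3 and 0 to 1. Wnt genes called in cKO were 3 with upper-quartile factors, 12 without a filter, 12 with DESeq2, 18 with limma, 8 with GC correction, 20 with the name-number block, 16 with 6 embryos and 0 to 16 leaving out one. In dcKO they were 7, 9, 23, 1 and 10 (no filter, DESeq2, limma, GC, name-number block) and 0 to 16, and between mutants 18 with the name-number block and 0 to 5.

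All genes called in cKO were 2, and 424 with upper-quartile factors, 813 without a filter, 1206 with DESeq2, 1868 with limma, 647 with GC correction, 1986 with the name-number block, 1758 with 6 embryos and 0 to 1473 leaving out one. In dcKO they were 0, and 692, 1157, 3668, 175 and 1633 (no filter, DESeq2, limma, GC, name-number block) and 0 to 3245. Between mutants they were 2, and 8, 52, 27, 6 and 1583, then 0 with 6 embryos and 0 to 1236. The name-number block leaves 1 residual degree of freedom, and its number is not shown to pair embryos (mean r of -0.120 over 3 pairs). The cause of these differences was not tested.

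With the replicate block, all genes called were 0 in cKO, 0 in dcKO and 0 between mutants (4, 0 and 6 with GC correction), and 0 members. Over 9 pairs of embryos with the same replicate number, deviations correlated at -0.169 on average, so the replicate number is not shown to pair them.

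Signs changed as follows. *Rnf43* in dcKO (0.03) was -0.0019 with RLE, -0.083 without a filter, -0.066 with filterByExpr, -0.0022 with DESeq2, -1.20 with limma, -0.094 with the replicate block, -0.032 with 6 embryos and -0.41 to 0.43 leaving out one. *Lgr4* in dcKO was 0.12 with limma. Between mutants, limma gave *Rspo1* 0.42, *Rspo2* 1.16, *Rspo3* 0.95, *Lgr4* 0.44 and *Rnf43* -0.10, GC correction gave *Rspo1* 0.13, and the name-number block gave *Rspo1* 1.75 and *Rspo2* 2.51. Leaving out one embryo gave -0.68 to 0.085 for *Rspo1*, -0.94 to 0.30 for *Rspo2*, -0.76 to 0.41 for *Rspo3* and -0.47 to 0.25 for *Lgr4*. Depth limits *Rspo4*, *Lgr5* and *Lgr6*, whose reads were too few for the edgeR and DESeq2 tests with the filter.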
